A study of Mus musculus with 15 samples.

Results

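The genes described here are the nuclear genes of respiratory complex I, taken as all protein-coding genes of the GENCODE mouse annotation (GRCm38) whose symbol begins with Nduf. The rule found 46 genes on 17 chromosomes among the 45232 gene IDs of the count table, and 45 of them were expressed highly enough to be tested. They encode 7 core subunits, 9 accessory subunits of the peripheral arm, 9 of the proximal and 10 of the distal membrane arm, the acyl carrier protein Ndufab1, 8 assembly factors, and 2 proteins that carry the name without being complex I subunits, Ndufa4 and Ndufa4l2. The roles were assigned from general knowledge.

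Complex I is the entry point of electrons from NADH into the respiratory chain. Its peripheral arm reaches into the mitochondrial matrix and holds the flavin and the iron-sulfur clusters, and its membrane arm pumps protons. The core of the membrane arm is encoded by the mitochondrial genome (the mt-Nd genes), whereas the core of the peripheral arm and all accessory subunits are encoded in the nucleus and imported. Hematopoietic stem cells at rest are known for a low reliance on respiration, and oxidative phosphorylation increases as they enter the cell cycle and differentiate.

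RNA was sequenced from LSK cells (Lin- Sca-1+ c-Kit+), marrow cells that include stem and early progenitor cells, in 15 libraries of 5 groups with 3 libraries each. The mutant groups held CD45.2+ LSK cells that carried mutant Jak2 (V617F) and mutant Idh2 (R140Q), both on conditional alleles recombined after polyI:polyC, sorted from lethally irradiated CD45.1 hosts that had received these cells mixed with CD45.1 marrow. The hosts were given vehicle, AG221 (an inhibitor of mutant IDH2, 40 mg/kg in the labels), ruxolitinib (Rux, a JAK inhibitor, 60 mg/kg) or both (combo) by gavage for 21 to 28 days, with the last dose 1.5 hours before sacrifice. The fifth group was WT CD45.2+ LSK cells, and all mice were C57BL/6. The sources used here do not say whether WT cells came from transplanted hosts, or whether a library held 1 mouse or a pool, so the p-values measure only the spread between these libraries. The vehicle libraries are named A1, A3 and A4, the AG221 libraries A8, A9 and A10, the Rux libraries A14, A16 and A17, the combo libraries B24, B25 and B26, and the WT libraries B28, B30 and B31. The letters are not explained. All vehicle, AG221 and Rux libraries carry A, and all combo and WT libraries carry B. Letter and group therefore cannot be told apart between vehicle and WT, or between combo and vehicle, AG221 or Rux. The same holds for the test of combo against the sum of both single-drug changes. AG221 and Rux against vehicle, and combo against WT, lie within a letter.

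Libraries held 18836625 to 32174287 counts (median 25545779), so that 3 counts, the limit of a count of 0, came to 0.0957 to 0.156 CPM, the counts of a gene relative to the scaled library total. All 10 LSK markers examined (Kit, Ly6a and others) exceeded 3 counts in every library, and their summed CPM was 4255 to 4654 in WT, 2421 to 3756 in vehicle, 2548 to 2959 in AG221, 2900 to 3424 in Rux and 2790 to 3641 in combo libraries. Of 9 neutrophil and monocyte genes 8 exceeded 3 counts in every WT, vehicle and combo library and 9 in every AG221 and Rux library, with Ly6g at or under 3 counts in WT. Their summed CPM was 3567 to 3983 in WT, 8037 to 13246 in vehicle, 17677 to 21309 in AG221, 12500 to 19672 in Rux and 4469 to 7890 in combo libraries. The list includes the granule genes Mpo, Elane, Prtn3 and Ctsg. Gr-1 and Mac1 were among the lineage antibodies, and which cells held these transcripts was not tested. The summed CPM of 17 immediate early genes, of which Egr3 was at or under 3 counts in WT and combo, was 878 to 1202 in WT, 7631 to 16287 in vehicle, 4665 to 6204 in AG221, 4917 to 10090 in Rux and 810 to 1407 in combo libraries. Every library named B lay below every library named A in this sum. Between WT and vehicle libraries, the summed CPM of 5 megakaryocyte markers went from 198 to 257 up to 730 to 784, that of 8 erythroid markers from 66.2 to 102 up to 182 to 322, and that of 5 plasma cell markers from 627 to 1283 down to 88.8 to 156. The sum of 6 T and NK cell markers was 153 to 218 in WT, 408 to 455 in vehicle and 598 to 760 in AG221 libraries. It was 426 to 529 in Rux and 363 to 403 in combo libraries. Few of these markers carried the sum, since only 1 of 6 exceeded 3 counts in every Rux library and 1 in every combo library. That number was 3 in vehicle, 4 in AG221 and 5 in WT. Ncr1 was at or under 3 counts in every vehicle and combo library, and Cd8a in every combo library. The megakaryocyte sum was 291 to 521 in AG221, 576 to 633 in Rux and 435 to 841 in combo libraries. The erythroid sum was 128 to 299 in AG221, 202 to 1169 in Rux and 148 to 285 in combo libraries. The sum of 6 B cell markers was 64.7 to 86.6 in WT and 27.4 to 56.9 in mutant libraries. WT libraries differed from all mutant libraries in sex, since 4 Y-linked genes were at or under 3 counts in every WT library and above that in every mutant library. AG221 library A9 stood apart from A8 and A10, and Rux library A16 from A14 and A17. In bulk RNA, fewer cells of a type and less RNA per cell cannot be told apart, and the part of these differences in the results below was not tested.

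The promoter windows of 40 of the 46 genes were found in RefSeq (GRCm38.p6), each 250 bases before and 50 bases after the start. They were searched on both strands for the letters GCGCATGCG (part of the binding motif of NRF1, a regulator of respiratory chain genes), CCGGAAG (ETS factors such as GABP) and AAGATGGCG (YY1). NRF1 letters were found in 9.52% of the members' 42 windows (in Ndufa11, Ndufa8, Ndufaf4 and Ndufaf5) and in 1.75% of all 32851 windows. ETS letters were found in 14.3% against 8.86% and YY1 letters in 14.3% against 1.40%. None of the 3 was found for 25 of the 40 genes, and no motif overlapped another in the stretches printed here, apart from NRF1 letters on both strands. A match is a description of the letters and not of binding. Stretches of 120 bases upstream are printed for 2 genes with NRF1 letters, which are in capitals, and for 2 genes without any of the motifs. Each ends before both the RefSeq and the GENCODE start, with its last base 1 base before the RefSeq start in Ndufa11 and Ndufaf4, 14 bases before it in Ndufb3 and 39 bases before it in Ndufab1. Ndufa11, Ndufaf4 and Ndufb3 rose in vehicle against WT and fell in combo against AG221, where Ndufab1 rose. Ndufa8 and Ndufaf5, which also have NRF1 letters, did not pass the test in vehicle against WT (edgeR adjusted p = 0.105 and 0.053). A relation between letters and level was not tested. The stretches lie at chr17:56717642-56717761 (plus strand) for Ndufa11, chr4:24897963-24898082 (plus strand) for Ndufaf4, chr1:58586264-58586383 (plus strand) for Ndufb3 and chr7:122101887-122102006 (minus strand) for Ndufab1.
Ndufa11: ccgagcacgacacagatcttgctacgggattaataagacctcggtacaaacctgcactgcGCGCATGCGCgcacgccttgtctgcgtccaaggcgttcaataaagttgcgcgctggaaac
Ndufaf4: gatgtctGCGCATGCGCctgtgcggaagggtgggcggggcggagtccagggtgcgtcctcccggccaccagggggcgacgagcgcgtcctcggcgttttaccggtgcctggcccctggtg
Ndufb3: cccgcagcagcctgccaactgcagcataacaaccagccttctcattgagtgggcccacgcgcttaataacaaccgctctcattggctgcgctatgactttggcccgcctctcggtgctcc
Ndufab1: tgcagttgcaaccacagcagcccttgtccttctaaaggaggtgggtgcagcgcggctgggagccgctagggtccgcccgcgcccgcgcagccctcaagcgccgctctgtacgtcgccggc

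The summed level of the 46 genes was lowest in WT LSK cells and highest after AG221. It was 3031 ± 465 CPM in WT, 4164 ± 461 CPM in vehicle, 5541 ± 324 CPM in AG221, 4465 ± 434 CPM in Rux and 4173 ± 336 CPM in combo (mean ± SD, n = 3 each). The AG221 libraries lay at 5169 to 5759 CPM, above every other library. WT library B31 (3567 CPM) lay above B28 (2763 CPM) and B30 (2762 CPM) and just below the lowest vehicle library, A3 (3650 CPM).

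**Figure D1:**
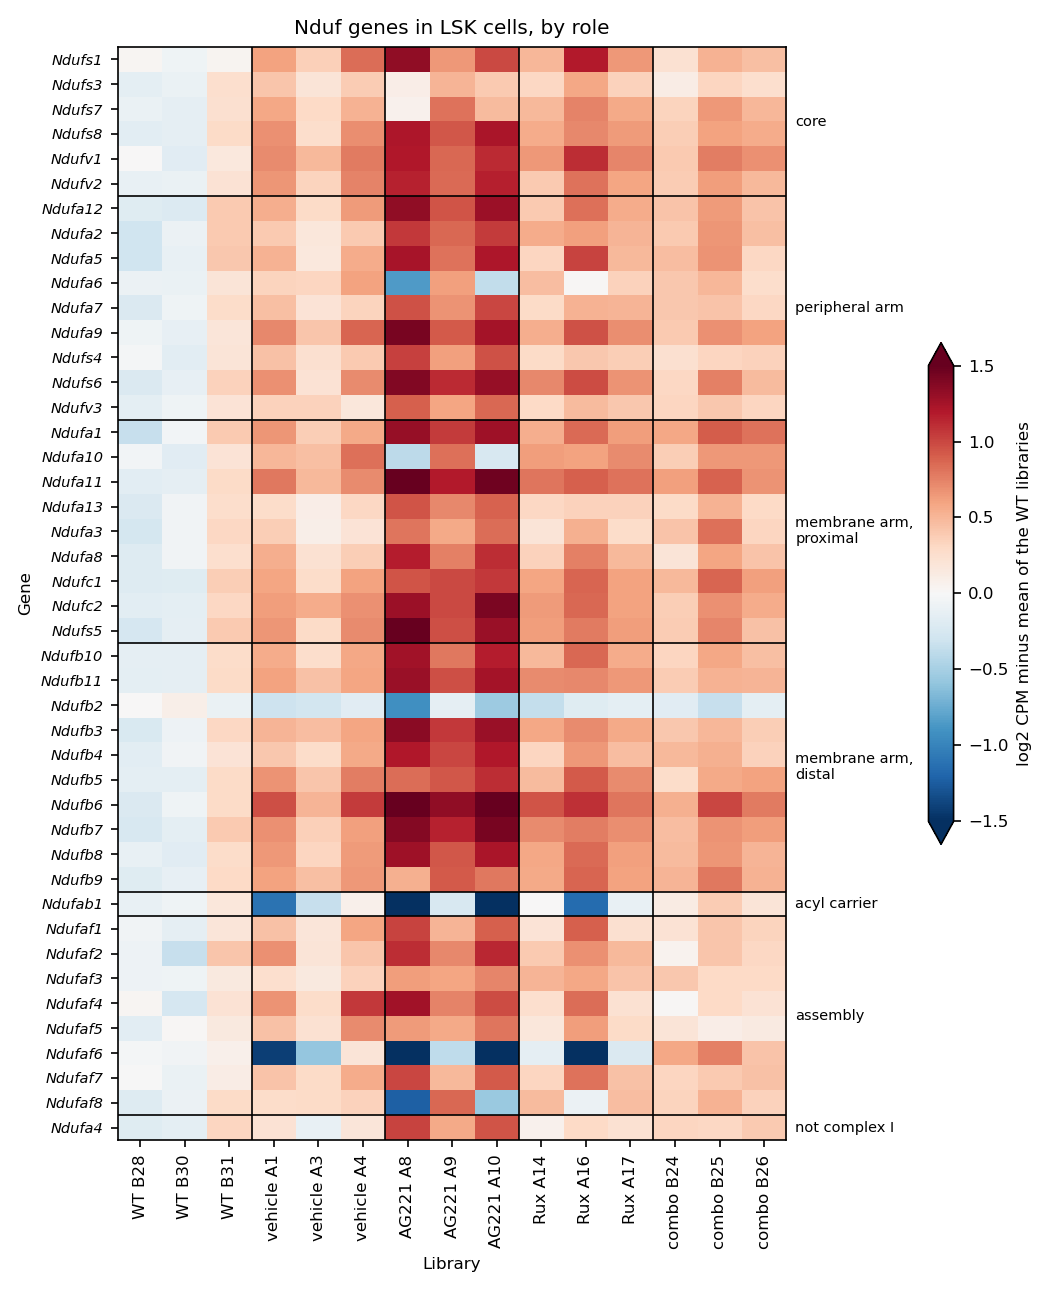
Heat map of tested Nduf genes (rows, by role) in 15 libraries (columns, by group), as log2 CPM minus the mean of the WT libraries, with colors saturated beyond 1.5 in either direction. Most genes are darkest red in AG221 libraries A8 and A10, while Ndufab1 and Ndufaf6 are blue in those libraries and in vehicle A1 and Rux A16.

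Per kilobase of transcript, the most abundant member was Ndufa4, a subunit associated with cytochrome c oxidase, with 495 CPM per kb over all libraries. Ndufb9 (216 CPM per kb) and Ndufc2 (190 CPM per kb) followed. The lowest tested member was Ndufb2 with 4.32 CPM per kb, a level that depends on the length of the annotated transcript used (4371 bases, against a median of 952.5 bases for the members). Ndufa4l2, the hypoxia-induced relative of Ndufa4, had 14 reads in all libraries together and was not tested. Its highest library was WT B30 at 0.268 CPM, the other WT libraries were at 0.0362 and 0.0335 CPM, and no mutant library exceeded 0.0462 CPM, which is below the level of 3 counts. It had no read in any AG221 library.

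Comparison of vehicle-treated mutant LSK cells with WT LSK cells asks how the mutant cells differed before any inhibitor. Genes of both arms of complex I were higher in mutant cells. Of 45 tested members 17 rose and 0 fell, where 15.4% of all 17834 tested genes rose and 17.9% fell (edgeR, Benjamini-Hochberg adjusted p under 0.05). The median log2 fold change was 0.46 over the members and -0.09 over all genes, and 42 members had a positive value. In 23 members all 3 vehicle libraries exceeded all 3 WT libraries, as did 25.7% of all genes.

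The core subunits Ndufv1, Ndufv2, Ndufs8 and Ndufs1 rose. Ndufv1 binds NADH and carries the flavin, and Ndufs1 is the largest subunit and holds several iron-sulfur clusters. Ndufv1 was at 157, 138 and 174 CPM in WT and at 257, 220 and 268 CPM in vehicle libraries. These groups did not overlap, and the log2 fold change was 0.66 ± 0.16 (SE; edgeR adjusted p = 0.011).

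Ndufs1 was at 145, 136 and 146 CPM in WT and at 217, 184 and 256 CPM in vehicle libraries (log2 0.61 ± 0.20, edgeR adjusted p = 0.033). Ndufv2, which passes electrons on from the flavin site through an iron-sulfur cluster, was at 132, 132 and 165 CPM in WT and at 225, 180 and 239 CPM in vehicle libraries (log2 0.58 ± 0.16, edgeR adjusted p = 0.015). In both genes the groups did not overlap. Ndufs8 was at 90.3, 91.8 and 124 CPM in WT and at 162, 122 and 163 CPM in vehicle libraries (log2 0.55 ± 0.16, edgeR adjusted p = 0.020). Here WT B31 lay slightly above vehicle A3.

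The core subunits Ndufs3 and Ndufs7 did not pass the test. Ndufs7, which holds an iron-sulfur cluster close to the site where ubiquinone is reduced, had a log2 fold change of 0.46 ± 0.18 (edgeR adjusted p = 0.061), from 98.4, 95.8 and 125 CPM in WT to 158, 130 and 152 CPM in vehicle libraries. Every vehicle library exceeded every WT library. Ndufs3 had 0.32 ± 0.15 (edgeR adjusted p = 0.110), from 57.3, 59.2 and 75.6 CPM to 85.1, 73.0 and 83.2 CPM, with WT B31 above vehicle A3.

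**Figure D2:**
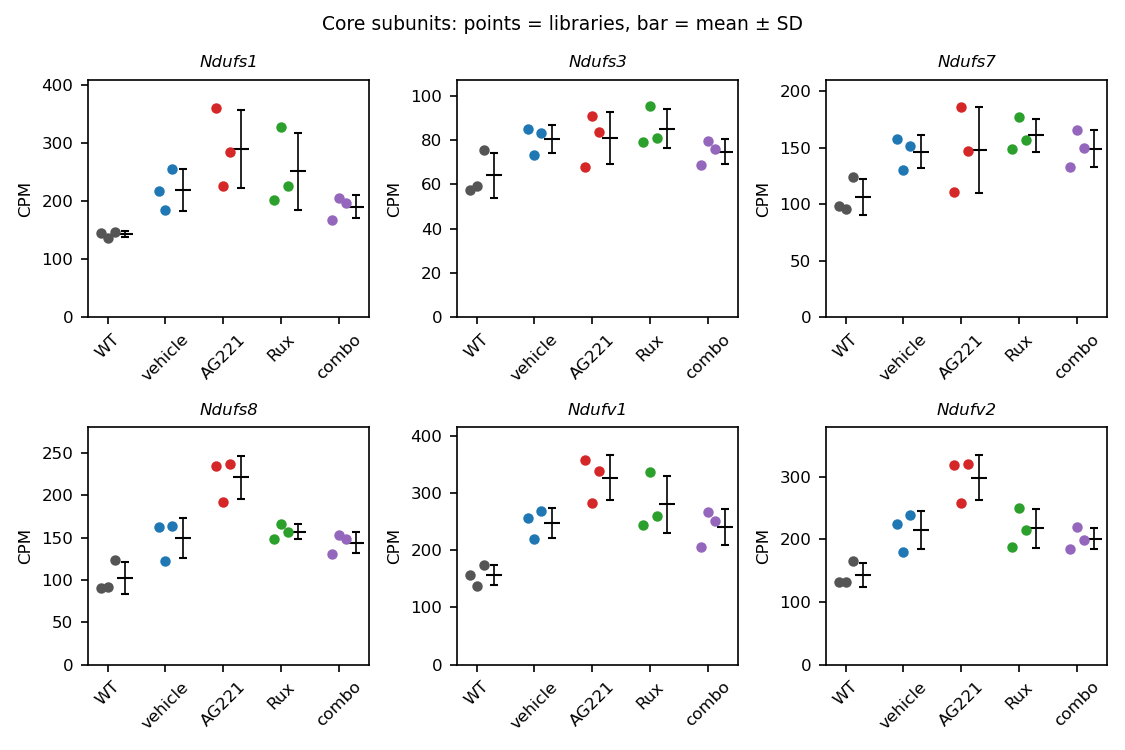
CPM (y axes, from 0) of 6 nuclear core subunits in the 5 groups (x axes). Points are single libraries in the order given in the text and bars are mean ± SD with n = 3, with Ndufs1, Ndufs8, Ndufv1 and Ndufv2 having their highest mean in AG221.

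Among accessory subunits, 7 of 10 in the distal membrane arm, 3 of 9 in the proximal membrane arm and 2 of 9 in the peripheral arm rose. The smallest p-value belonged to Ndufb6, at 17.2, 18.97 and 24.3 CPM in WT and 39.2, 28.6 and 41.3 CPM in vehicle libraries (log2 0.85 ± 0.19, edgeR adjusted p = 0.0081). Exons of Smim27 on the other strand cover 39.0% of the Ndufb6 exons, and since the strand setting of the counting is not given, reads of the pair cannot be told apart. Ndufa11, a membrane-embedded subunit, rose by log2 0.66 ± 0.15 (edgeR adjusted p = 0.0094), and its CPM values were 37.7, 38.2 and 51.0 in WT and 72.9, 59.0 and 68.6 in vehicle libraries. Ndufa9, a peripheral arm subunit near the ubiquinone site, rose by log2 0.67 ± 0.17 (edgeR adjusted p = 0.012). Its groups did not overlap either, nor did those of Ndufb6 and Ndufa11.

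The X-linked members Ndufa1 and Ndufb11 also rose, in a comparison between libraries that differed in sex. Ndufb11 was at 57.6, 57.5 and 77.3 CPM in WT and at 97.1, 86.4 and 95.9 CPM in vehicle libraries (log2 0.53 ± 0.14, edgeR adjusted p = 0.013). Ndufa1 was at 24.3, 29.96 and 40.7 CPM in WT and at 49.2, 39.9 and 45.9 CPM in vehicle libraries, with WT B31 above vehicle A3 (log2 0.50 ± 0.18, edgeR adjusted p = 0.050, below the threshold before rounding). Ndufa13, also known as Grim19, a membrane arm subunit that has been reported to bind STAT3, was at 54.4, 60.9 and 76.03 CPM in WT and at 76.7, 67.6 and 78.4 CPM in vehicle libraries, and did not pass the test. Exons of Tssk6 on the other strand cover 29.98% of its exons. Ndufa4 was at 211, 216 and 300 CPM in WT and 279, 222 and 271 CPM in vehicle libraries, and these groups overlapped.

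Of the assembly factors 1 of 8 rose, Ndufaf4 (log2 0.69 ± 0.22, edgeR adjusted p = 0.032), which acts in the assembly of the peripheral arm. The lowest values belonged to Ndufaf6 (log2 -0.46 ± 0.58) and Ndufab1 (log2 -0.38), neither of which passed the test. The number of members that rose depended on single libraries of both groups. It was 1 without WT B30, 29 without WT B31, 7 without WT B28, 10 without vehicle A1 and 6 without vehicle A4, with 0 that fell each time. The number over all genes moved too. It was 844 of 18054 without WT B30, 2503 of 18734 without WT B31 and 1765 of 18684 without WT B28. Without vehicle A1 1527 of 19116 genes rose, and without vehicle A4 1692 of 19125. DESeq2 called 24 higher and 0 lower, where it called 3106 of its 25469 tested genes higher and 4711 lower.

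**Figure D3:**
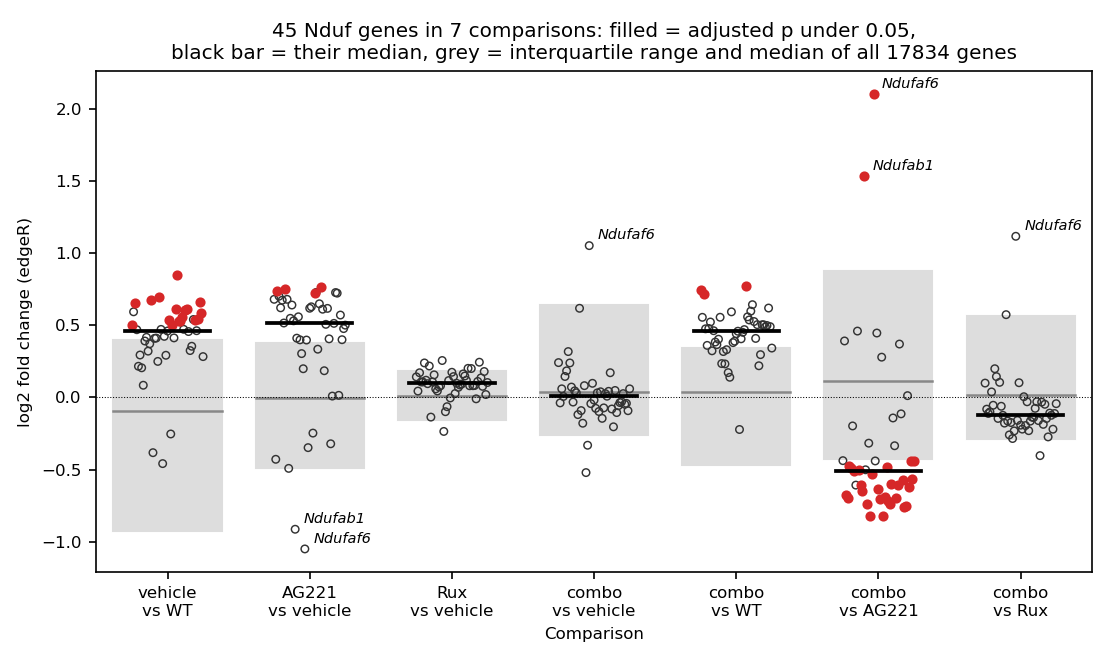
log2 fold changes (y axis) of the 45 tested Nduf genes in 7 comparisons (x axis). Filled points passed edgeR at an adjusted p under 0.05, the black bar is the members' median, and the grey box and line are the interquartile range and median of all 17834 tested genes. The members lie above most genes in the comparisons of vehicle with WT, AG221 with vehicle and combo with WT, near 0 in those of Rux and combo with vehicle, and below most genes in that of combo with AG221.

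Ruxolitinib and combined treatment were compared with vehicle to ask whether inhibition moved these genes back. No member passed the test in either comparison. For Rux, 0 of 45 members were called where 0.0168% of all genes were, the lowest edgeR adjusted p was 1, 0 members had an unadjusted p under 0.05, and DESeq2 called 0. For combo, 0 of 45 members were called where 12.5% of all genes were, 1 member (Ndufaf4) had an unadjusted p under 0.05, and DESeq2 called 0. Over all 17834 genes, 813 had an unadjusted p under 0.05 for Rux and 4715 for combo. DESeq2 called 6 of its 18925 tested genes higher and 44 lower for Rux. For combo it called 1974 of 20379 higher and 1013 lower. The median log2 fold change of the members was 0.10 for Rux and 0.0063 for combo, beside 0.012 and 0.037 over all genes.

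For 35 of 45 members the 95% interval lay within a 1.5-fold change in either direction after Rux, and for 35 of 45 after combo. Some members differed from WT by less than 1.5-fold in vehicle, so such an interval can still include a return to WT. For Ndufs3, with log2 0.32 in vehicle against WT, the interval for combo ran from log2 -0.43 to 0.22. Ndufv1 was at 245, 338 and 260 CPM in Rux libraries and at 205, 267 and 251 CPM in combo libraries, overlapping vehicle in both. Its interval ran from log2 -0.16 to 0.52 for Rux and from -0.38 to 0.30 for combo. Ndufs1 was at 202, 327 and 226 CPM in Rux libraries, where A16 was the highest, and at 168, 206 and 196 CPM in combo libraries. Its interval for combo ran from log2 -0.63 to 0.23, which includes a 1.5-fold decrease.

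Other core subunits lay close to vehicle after Rux. Ndufs8 was at 148, 166 and 157 CPM and Ndufv2 at 188, 251 and 215 CPM in Rux libraries. Ndufs3 was at 79.3, 95.3 and 80.7 CPM, and Ndufs7 at 149, 178 and 157 CPM. In all 4 of these genes A16 was the highest Rux library, and each group overlapped with vehicle. Over these 4, Ndufv1 and Ndufs1, the log2 fold changes ran from 0.020 (Ndufv2) to 0.20 (Ndufs1) for Rux and from -0.20 (Ndufs1) to 0.026 (Ndufs7) for combo.

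The X-linked Ndufa1 was at 45.3, 55.8 and 47.9 CPM in Rux and at 46.5, 58.3 and 54.7 CPM in combo libraries, and Ndufb11 was at 104, 105 and 99.98 CPM in Rux libraries. Ndufa13 was at 78.4, 80.7 and 80.7 CPM in Rux and at 77.4, 90.9 and 77.8 CPM in combo libraries. Ndufa4 was at 250.2, 294 and 281 CPM in Rux and at 301, 297 and 314 CPM in combo libraries. The combo libraries of Ndufa4 and the Rux libraries of Ndufb11 all lay above vehicle, and none of these differences passed the test.

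The widest intervals belonged to Ndufab1, the mitochondrial acyl carrier protein, and Ndufaf6, an assembly factor of the phytoene synthase family. Ndufaf6 was at 29.4, 33.3 and 26.7 CPM in combo and at 7.37, 13.2 and 22.6 CPM in vehicle libraries, with no overlap. The interval of its log2 fold change was -0.21 to 2.31. For Ndufab1 the interval was -0.45 to 1.69.

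Compared with WT LSK cells, combo-treated mutant LSK cells had 3 members that rose and 0 that fell, where 1.63% of all genes rose and 1.61% fell. The members were Ndufa11 (log2 0.72 ± 0.15, edgeR adjusted p = 0.029), Ndufb6 (log2 0.77 ± 0.19, edgeR adjusted p = 0.044) and Ndufa1 (log2 0.75 ± 0.19, edgeR adjusted p = 0.046). All 3 of them were also among the 17 that rose in vehicle, in a comparison that shares the WT libraries. The median over the members was 0.46, beside 0.04 over all genes, and 44 of 45 values were positive. At an unadjusted p under 0.05 there were 32 members, beside 4529 of all 17834 genes. DESeq2 called 11 members higher and 0 lower, where it called 958 of its 21832 tested genes higher and 842 lower.

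No core subunit passed the test between combo and WT. Ndufv1 had a log2 fold change of 0.62 ± 0.16 (edgeR adjusted p = 0.051), and Ndufs3 had the smallest change of the core subunits (log2 0.22 ± 0.15, edgeR adjusted p = 0.382). Ndufs8 (log2 0.498 ± 0.16), Ndufv2 (log2 0.49 ± 0.16), Ndufs7 (log2 0.49 ± 0.18) and Ndufs1 (log2 0.41 ± 0.20) lay between them, with edgeR adjusted p from 0.084 to 0.219. Every combo library exceeded every WT library for Ndufv1, and the groups overlapped for Ndufs3. Without WT B31 the number of members that rose was 11, and it was 0 without WT B28, WT B30, combo B25 or combo B26. Of all genes, 224 of 18734 rose without WT B31, 50 of 18684 without WT B28 and 65 of 18054 without WT B30. Without combo B25 50 of 19112 rose, and without combo B26 236 of 19145.

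AG221 alone was compared with vehicle. Here 4 of 45 members rose and 0 fell, where 0.471% of all genes rose and 0.516% fell. The median log2 fold change of the members was 0.52, beside -0.0065 over all genes. In 30 members all 3 AG221 libraries exceeded all 3 vehicle libraries, as did 12.7% of all genes. An unadjusted p under 0.05 was found for 30 members and for 4498 of all 17834 genes. DESeq2 called 27 members higher and 0 lower, where it called 7.90% of its tested genes higher and 1095 of 14584 lower.

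The members that rose were Ndufb3 and Ndufb7 of the distal membrane arm, Ndufa11 of the proximal membrane arm, and Ndufa4. Ndufb3 was at 61.3, 59.5 and 65.3 CPM in vehicle and at 110, 90.04 and 106 CPM in AG221 libraries (log2 0.72 ± 0.15, edgeR adjusted p = 0.046). Ndufb7, a subunit on the intermembrane space side, was at 94.6, 75.2 and 90.1 CPM in vehicle and at 152, 131 and 158 CPM in AG221 libraries (log2 0.76 ± 0.16, edgeR adjusted p = 0.048). In each of these genes A9 was the lowest of the AG221 libraries and still above every vehicle library.

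Ndufa11 was at 122, 95.8 and 116 CPM in AG221 libraries (log2 0.74 ± 0.15, edgeR adjusted p = 0.046). Ndufa4 was at 484, 356 and 459 CPM in AG221 libraries (log2 0.75 ± 0.16, edgeR adjusted p = 0.047). Both genes showed no overlap with vehicle.

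No core subunit passed the test. Ndufs8 had a log2 fold change of 0.57 ± 0.16 (edgeR adjusted p = 0.071), with 235, 192 and 237 CPM in AG221 libraries, and Ndufv2 had 0.48 ± 0.16 (edgeR adjusted p = 0.099), with 318, 258 and 320 CPM. Ndufv1 was at 359, 283 and 340 CPM (log2 0.40 ± 0.16, edgeR adjusted p = 0.146) and Ndufs1 at 360, 225 and 284 CPM (log2 0.41 ± 0.20, edgeR adjusted p = 0.222). The first 3 of these did not overlap with vehicle, and Ndufs1 did.

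Ndufs3, at 68.0, 90.9 and 83.8 CPM, and Ndufs7, at 111, 186 and 147 CPM, had log2 fold changes of 0.0089 and 0.014 and overlapped with vehicle. In both, A8 was the lowest and A9 the highest AG221 library. The X-linked Ndufa1 (77.02, 64.1 and 75.2 CPM) and Ndufb11 (157, 124 and 151 CPM) exceeded vehicle in every AG221 library, as did Ndufa13 (122, 104 and 117 CPM), without passing the test.

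The AG221 libraries also differed among themselves in the members. In 33 of 45 members (73.3%) both A8 and A10 lay above A9, as in 37.3% of all tested genes. In 10 members (22.2%) both lay below A9, as in 45.3% of all tested genes. Among these, Ndufa10, Ndufab1, Ndufaf6 and Ndufaf8 were at less than 1/2 of A9 in both libraries, which is 8.89% of the members and 16.9% of all genes. Ndufab1 was at 11.3, 56.8 and 14.3 CPM in A8, A9 and A10, and Ndufaf6 at 2.78, 15.2 and 2.94 CPM. Both genes were also low in vehicle A1 (31.2 and 7.37 CPM) and Rux A16 (30.2 and 6.23 CPM).

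Without A9, 29 of 45 members rose and 7 fell after AG221, where 7.83% of all genes rose and 16.6% fell. Those that fell included Ndufaf6 (log2 -2.34), Ndufab1 (log2 -2.02), Ndufaf8, Ndufa6, Ndufa10 and Ndufb2 (log2 -0.48). Without any other single library of the AG221 or vehicle groups, 0 members were called. Over all genes in these fits, 24 rose and 3 fell without vehicle A3, and 0 were called without each of the others. With offsets for GC content, for transcript length or for both, 0 members were called as well, while the median stayed between 0.44 and 0.71 over all alternatives. Of all genes, 95 rose and 115 fell with GC offsets, 31 and 10 with length offsets, and 69 and 33 with both.

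**Figure D4:**
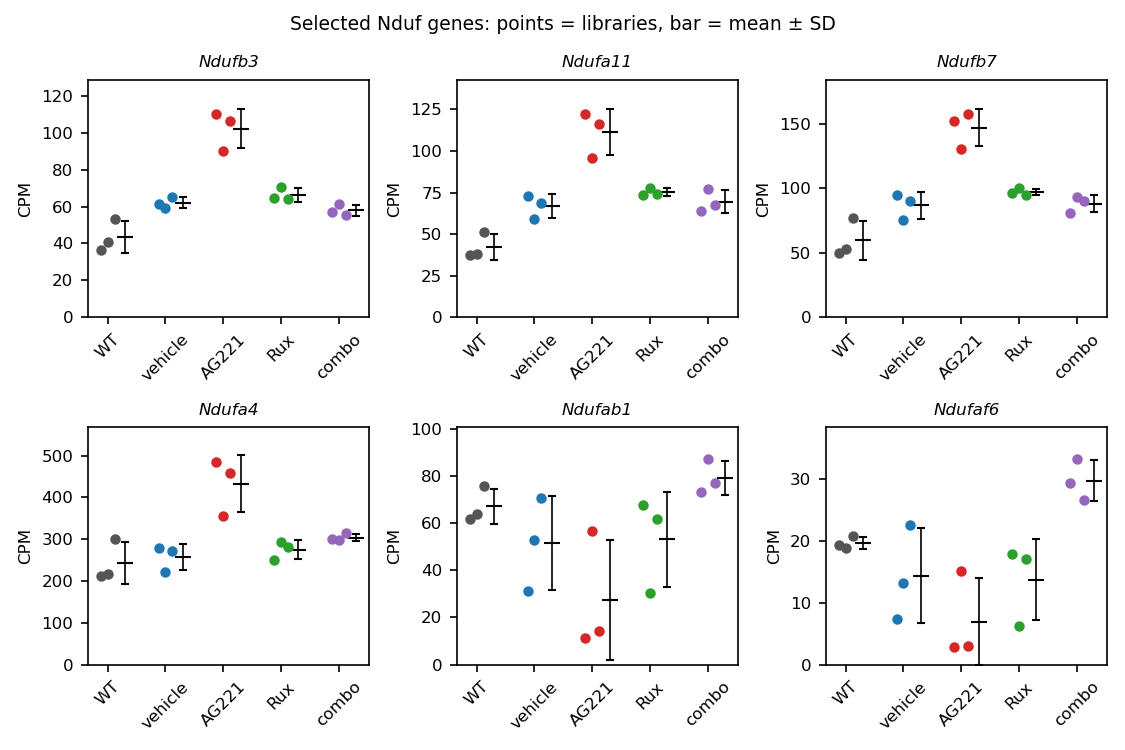
CPM (y axes, from 0) of 6 selected members in the 5 groups (x axes), with single libraries as points and mean ± SD as bars (n = 3). Ndufb3, Ndufa11, Ndufb7 and Ndufa4 are highest in AG221, while Ndufab1 and Ndufaf6 split between libraries of the vehicle, AG221 and Rux groups and have their highest mean in combo. The lower bar of Ndufaf6 in AG221 runs below 0 and is not drawn beyond the axis.

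Combined treatment was compared with AG221 alone to ask what ruxolitinib added, although the library letter (B against A) differed along with the treatment. Complex I genes were lower with both drugs, with 28 members that fell and 2 that rose, where 14.3% of all genes fell and 18.9% rose. The members' median log2 fold change was -0.51, beside 0.11 over all genes. In 34 members all combo libraries lay below all AG221 libraries, as in 20.3% of all genes. Members that fell came from every role but the acyl carrier, with 8 of 10 in the distal and 5 of 9 in the proximal membrane arm, 7 of 9 in the peripheral arm, 4 of 7 core subunits, 3 of 8 assembly factors, and Ndufa4.

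The smallest p-value belonged to Ndufb3, at 57.0, 61.1 and 55.6 CPM in combo libraries (log2 -0.82 ± 0.15, edgeR adjusted p = 0.0029). Ndufb11 was at 83.1, 91.4 and 90.4 CPM in combo libraries (log2 -0.70 ± 0.14, edgeR adjusted p = 0.0037). Ndufb7 was at 80.8, 93.3 and 90.4 CPM (log2 -0.74 ± 0.16, edgeR adjusted p = 0.0060). Ndufc2, a membrane arm subunit, was next (log2 -0.70 ± 0.16, edgeR adjusted p = 0.0061). In all 4 the combo libraries lay below the AG221 libraries without overlap, and these calls held without any single library. Reads of Ndufb3 and Ndufb11 may be shared with near-identical copies (Gm45930 and Gm6444). Exons of Rbm10 on the other strand cover 12.9% of the Ndufb11 exons.

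The core subunits that fell were Ndufs8 (130, 154 and 149 CPM in combo, log2 -0.62 ± 0.16, edgeR adjusted p = 0.011), Ndufv2 (185, 220 and 199 CPM, log2 -0.57 ± 0.16, edgeR adjusted p = 0.015), Ndufs1 (log2 -0.61 ± 0.20, edgeR adjusted p = 0.033) and Ndufv1 (log2 -0.44 ± 0.16, edgeR adjusted p = 0.046). Ndufs3 (68.7, 79.5 and 75.95 CPM, log2 -0.11 ± 0.15, edgeR adjusted p = 0.588) and Ndufs7 (133, 165 and 150 CPM, log2 0.012 ± 0.18, edgeR adjusted p = 0.967) did not pass the test.

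The 2 members that rose were Ndufaf6 (log2 2.10 ± 0.61, edgeR adjusted p = 0.019) and Ndufab1 (log2 1.53 ± 0.51, edgeR adjusted p = 0.034). Ndufab1 was at 73.3, 87.5 and 77.2 CPM in combo libraries, above every AG221 library. Reads of Ndufab1 may be shared with near-identical copies of its coding sequence (Gm4459 and Ndufab1-ps). The number of calls was 12 without AG221 A8, 16 without AG221 A10, 8 without combo B24 and 19 without combo B26, and Ndufab1 was no longer called without 5 of the 6 libraries. Over all genes, 1709 rose and 1293 fell of 19121 without A8, and 1719 and 1515 of 19093 without A10. Without B24 2146 rose and 1137 fell of 18988, and without B26 2888 and 1914 of 19145.

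Compared with ruxolitinib alone, combo changed 0 of 45 members, where 12.4% of all genes were called. At an unadjusted p under 0.05 there were 0 members, beside 4536 of all 17834 genes. DESeq2 called 0 members, where it called 1920 of its 17474 tested genes higher and 1053 lower. The median log2 fold change was -0.12, beside 0.014 over all genes, and the interval lay within 1.5-fold in either direction for 30 members. Ndufs1 had the lowest value of the core subunits (log2 -0.40 ± 0.20, edgeR adjusted p = 0.229), and Ndufv1, Ndufv2, Ndufs3, Ndufs7 and Ndufs8 lay between -0.22 and -0.11.

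The departure of the combined change from the sum of both single-drug changes was tested as an interaction. The members called were 6, all negative, where 2.82% of all genes were called lower and 5.60% higher. They were Ndufb3 (log2 -0.92 ± 0.21, edgeR adjusted p = 0.034), Ndufb11 (log2 -0.85 ± 0.20, edgeR adjusted p = 0.035), Ndufa11 (log2 -0.85 ± 0.22, edgeR adjusted p = 0.039), Ndufb7 (log2 -0.90 ± 0.23, edgeR adjusted p = 0.040), Ndufs6 (log2 -0.996 ± 0.27, edgeR adjusted p = 0.043) and Ndufc2 (log2 -0.78 ± 0.22, edgeR adjusted p = 0.048). Of these 6 subunits 5 belong to the membrane arm, and Ndufs6, which binds zinc, belongs to the peripheral arm. No core subunit passed, Ndufs8 being closest (log2 -0.69 ± 0.22, edgeR adjusted p = 0.062). This contrast shares the AG221 and vehicle libraries with the comparisons above, and of its groups only combo carries the letter B. Without AG221 A9 the calls were 28 lower and 6 higher, where 11.3% of all genes were lower and 20.5% higher, and with any other library of the 4 mutant groups left out they were 0 to 5. In those other fits 39 (without combo B25) to 409 (without vehicle A1) of all genes were lower. From 4 (without combo B24) to 1322 (without vehicle A1) were higher.

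Further genes of complex I were described from lists. Of the 7 mt-Nd genes 6 were tested. After AG221 mt-Nd4 rose, from 318, 308 and 346 CPM in vehicle to 525, 440 and 503 CPM in AG221 libraries (log2 0.60 ± 0.13, edgeR adjusted p = 0.046). It was the only mt-Nd gene called there, a share of 16.7% beside 0.471% of all genes. The median over the 6 genes was 0.58, and the AG221 libraries, A9 included, lay above vehicle for mt-Nd4. In combo against AG221 5 of 6 fell (83.3%, beside 14.3% of all genes), mt-Nd1 among them (log2 -0.64 ± 0.13, edgeR adjusted p = 0.0048). Against WT 1 of 6 rose in vehicle, a share of 16.7% beside 15.4% of all genes. This was mt-Nd1 (691 ± 51.7 CPM in WT and 1009 ± 21.3 CPM in vehicle, n = 3 each, log2 0.54 ± 0.13, edgeR adjusted p = 0.011), and 0 passed in Rux or combo against vehicle.

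Of 14 assembly factors with other names 3 rose and 1 fell in vehicle against WT (21.4% and 7.14%, beside 15.4% and 17.9% of all genes). Those that rose were Ecsit (log2 0.74 ± 0.22, edgeR adjusted p = 0.022), Foxred1 (log2 0.62 ± 0.17, edgeR adjusted p = 0.016) and Dmac1 (log2 0.63 ± 0.15, edgeR adjusted p = 0.011), and Sfxn4 fell (log2 -0.81 ± 0.20, edgeR adjusted p = 0.010). In combo against AG221 4 fell and 1 rose (28.6% and 7.14%, beside 14.3% and 18.9% of all genes). The gene that rose, Tmem70 (log2 2.40 ± 0.57, edgeR adjusted p = 0.0080), was at 8.76, 44.1 and 10.3 CPM in A8, A9 and A10, the same split as Ndufab1 and Ndufaf6.

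Among 12 regulators of mitochondrial genes, Ppargc1a, a coactivator of mitochondrial biogenesis, was lower in vehicle than in WT (log2 -2.30 ± 0.52, edgeR adjusted p = 0.0081), and Nrf1 was higher (log2 0.40 ± 0.14, edgeR adjusted p = 0.048). The shares of the 12 were 8.33% lower and 8.33% higher, below the 17.9% and 15.4% of all genes. Ppargc1a was at 5.87, 6.90 and 3.78 CPM in WT and at 1.58, 1.37 and 0.394 CPM in vehicle libraries. No regulator passed in AG221 against vehicle. In combo against AG221, 4 of 12 rose and 2 fell (33.3% and 16.7%, beside 18.9% and 14.3% of all genes). Those that rose were Gabpb1, a subunit of GABP (log2 1.201), Esrra (log2 1.33), Pprc1 (log2 0.93) and Myc (log2 0.86), and Ppargc1b (log2 -0.67) and Tfb1m (log2 -0.58) fell. Gabpb1 was at 42.4, 130 and 53.3 CPM in A8, A9 and A10 and at 176, 167 and 176 CPM in combo libraries. The other genes that rose had the same split. In A8, A9 and A10, Esrra was at 3.37, 9.14 and 4.14 CPM and Pprc1 at 52.1, 127 and 57.9 CPM. Myc was at 312, 895 and 413 CPM in these libraries, with A9 above combo B24 (891 CPM). In combo against vehicle Yy1 rose (log2 0.92) and Ppargc1b fell (log2 -0.80), and Yy1 rose in combo against Rux (log2 1.17). Each call was 8.33% of the 12, where 12.5% of all genes were called in either direction against vehicle and 12.4% against Rux.

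The Nduf genes were set beside other abundant housekeeping genes. Of 45 tested genes of respiratory complexes II to V 25 rose and 0 fell in vehicle against WT (median log2 0.53), 2 rose in AG221 against vehicle (median 0.47), and 2 rose and 20 fell in combo against AG221 (median -0.43). Of 89 tested ribosomal protein genes 47 rose and 0 fell in vehicle against WT (median 0.41), 1 rose after AG221 (median 0.48), and 0 rose and 64 fell in combo against AG221 (median -0.59). Over all genes, 15.4% rose and 17.9% fell in vehicle against WT, and 0.471% rose after AG221. In combo against AG221, 18.9% of all genes rose and 14.3% fell. No difference between these lists was tested. Nduf transcripts were short, with a median of 952.5 bases against 2598 bases over all tested genes, and had a median GC content of 51.9% against 49.6%. With offsets for GC content and length, the members' median minus that of all genes went from 0.55 to 0.36 in vehicle against WT, from 0.52 to 0.37 after AG221 and from -0.62 to -0.38 in combo against AG221.

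**Figure D5:**
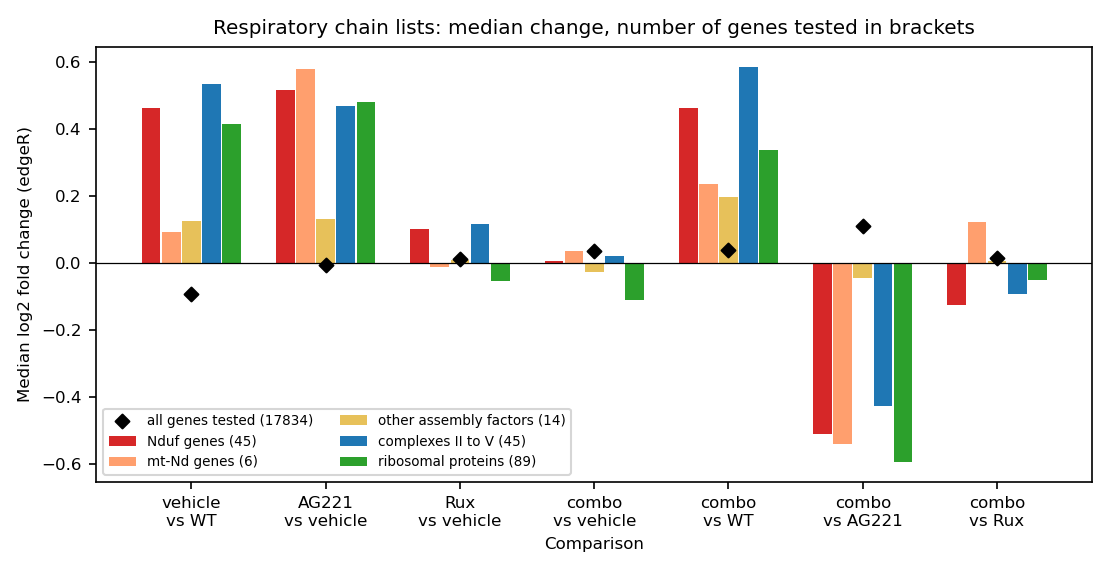
Median log2 fold change (y axis, bars from 0) of the Nduf genes, the mt-Nd genes, other complex I assembly factors, complexes II to V and ribosomal proteins in 7 comparisons (x axis), with the number of tested genes in the legend and diamonds for the median of all genes. Nduf genes, complexes II to V and ribosomal proteins point the same way in vehicle against WT, AG221 against vehicle and combo against AG221.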

How the data were processed

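Groups were taken from the sample labels. Per the labels and the methods, RNA from TRIzol was amplified with SMARTer, sequenced as 50-bp pairs and aligned to mm10 with STAR 2.5.1a, whose quantMode gave counts per gene of the Ensembl model. The Ensembl release and strand setting are not given in the sources used here. The authors deposited these raw counts, and a table of counts normalized by DESeq2 (1.6.3 in the submitters' processing notes), a signal that was not used further.

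Of 45232 gene IDs 44585 matched GENCODE mouse release 21 (Ensembl 96), which gave symbols, coordinates and lengths. Genes passing filterByExpr (17834) were fitted over all 15 libraries with edgeR 4.0.16 (R 4.3.3; TMM, 5 groups, quasi-likelihood), with Benjamini-Hochberg adjustment over all tested genes and a threshold of 0.05. CPM used TMM library sizes, and log2 CPM a prior count of 2. Standard errors were derived from each log2 fold change and its quasi-likelihood F statistic. Intervals of differences are approximate 95% intervals from these errors, with 13.6 degrees of freedom for all members. Levels per kb used the transcript with the longest coding sequence, and near copies were coding matches of at least 200 bases at 95% identity (BLAST 2.17.0). Such copies were found for 7 members, and exon overlap with a gene on the other strand for 17. GC and length offsets were lowess fits per library (span 0.3). The fit was tested on simulated data. The limit of a count of 0 covers counting error only. Promoter motifs were searched as exact letters. The NRF1 form was shortened by its last base after the longer form had been searched, which fewer members held.

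Values in every library are given for the core subunits (1 is not reported here), Ndufa13, Ndufa4 and the X-linked members, and the range for Ndufa4l2. Per comparison, fold changes are given for the core subunits, as ranges where none passed after Rux or combo, and for the 4 called members of lowest p-value in either direction. The most and least abundant members, those that failed the filter, those called against the majority and those with the smallest interaction p-values are also named, and Ndufaf4 was added after its values were seen, as were the genes named from the other lists. Members, lists and rule were chosen with earlier results of these data known. Alternatives were DESeq2 1.42.0, RLE and upper quartile normalization, other filters, a threshold of 0.01, the offsets, fits restricted to the compared groups, and omission of single libraries.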

Additional observations from a re-analysis of the deposited data

Results flagged for a closer look

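For 6 members the test gave a difference, in that they responded differently to combined treatment than the sum of both single drugs would give, by the interaction test of edgeR over all genes (combo minus AG221 minus Rux plus vehicle, log2 scale). The values were -0.92 for Ndufb3, -0.85 for Ndufb11, -0.85 for Ndufa11, -0.90 for Ndufb7, -0.996 for Ndufs6 and -0.78 for Ndufc2. In each of these genes the change with AG221 alone was positive and that of combo against vehicle lay near 0. The marker sums of neutrophil and monocyte genes reached their highest value in an AG221 library, but AG221 (17677 to 21309 CPM) overlapped Rux (12500 to 19672 CPM). Their part in these values was not tested.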

How the results depend on the processing

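The members' medians kept their sign in all alternatives except in combo against vehicle, where they ran from -0.23 to 0.05. They ran from 0.35 to 0.80 in vehicle against WT, 0.44 to 0.71 in AG221 against vehicle, 0.26 to 0.62 in combo against WT and -0.85 to -0.50 in combo against AG221. Counts of called members depended on the processing more than the medians did. No paired analysis was possible because replicate names are not shared between groups.

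Main counts were 17 (vehicle against WT), 4 (AG221), 0 (Rux), 0 (combo against vehicle), 3 (combo against WT), 30 (combo against AG221), 0 (combo against Rux) and 6 (interaction). In vehicle against WT the count was 2 at a threshold of 0.01, 4 with upper quartile normalization, 39 with GC offsets, 29 with length offsets and 29 with both, and 1 to 29 leaving out a library. Over all 17834 genes, 1613 were called at 0.01. With upper quartile 1306 rose and 3586 fell, and with GC offsets 5431 and 2338. With length offsets 4849 rose and 2253 fell, and with both 5011 and 2378. In AG221 against vehicle it was 0 at 0.01, without a filter, with each of the 3 kinds of offsets and in a fit of only these groups, 27 with DESeq2, 7 with RLE, 21 with upper quartile, 22 with at least 10 counts in every library, and 0 to 36 leaving out a library. Over all genes, 0 were called at 0.01 and in the fit of only these groups. Without a filter 66 rose and 140 fell of 37904, and with DESeq2 1152 and 1095 of 14584. With RLE 123 rose and 90 fell, with upper quartile 571 and 167, and with at least 10 counts 597 and 309 of 12732. In combo against WT it was 0 at 0.01 and with upper quartile, 1 with RLE, without a filter and with at least 10 counts, 11 with DESeq2, 6 with length offsets, 5 with both offsets, 5 in a fit of only these groups, and 0 to 11 leaving out a library. Over all genes, 78 were called at 0.01. With upper quartile 102 rose and 539 fell, with RLE 255 and 271, and without a filter 317 and 541. With at least 10 counts 106 rose and 168 fell, and with DESeq2 958 and 842. With length offsets 595 rose and 367 fell, with both 808 and 413, and with only these groups 630 and 1158. In combo against AG221 it was 7 at 0.01 and 8 to 38 leaving out a library. Of all genes, 2565 were called at 0.01. Leaving out a library, 1709 (without A8) to 4813 (without A9) rose and 1137 (without B24) to 3327 (without A9) fell. GC offsets gave 1 call each in combo against vehicle and combo against Rux. Of all 17834 genes, 1273 rose and 1193 fell with these offsets against vehicle, and 1343 and 996 against Rux. The interaction gave 0 at 0.01, 27 with DESeq2, 30 with upper quartile, 25 with at least 10 counts, 11 with GC offsets, 2 with length offsets, 3 in a fit of only these groups, and 0 to 34 leaving out a library. Over all genes it gave 34 at 0.01. With DESeq2 2117 of 16028 were higher and 1554 lower, and with upper quartile 1162 and 1962. With at least 10 counts 1231 of 12732 were higher and 1254 lower. With GC offsets it was 1096 and 807, with length offsets 812 and 702, and with only these groups 42 and 125. Upper quartile and GC offsets moved the median of all genes too, from -0.09 to -0.18 and 0.27 in vehicle against WT.

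Of 711 alternatives for named genes 9 changed sign, all in genes that passed no test there. Ndufs3 after AG221 went to -0.027 with length offsets and -0.057 with both offsets, and ran from -0.091 to 0.15 leaving out a library, negative without vehicle A3 or AG221 A9. Ndufs7 after AG221 went to -0.042 with length offsets and ran from -0.19 to 0.21 leaving out a library, negative without the same libraries. Ndufa4 in vehicle against WT went to -0.0032 with upper quartile normalization and -0.030 with at least 10 counts. The causes were not tested.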
